A study of Mus musculus with 12 samples.

Results

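Flavin-containing monooxygenases (FMO) and aldehyde oxidases (AOX) are oxidising enzymes of the liver that stand outside the cytochrome P450 family. The mRNA levels of 6 of their genes, *Fmo1*, *Fmo2*, *Fmo4*, *Fmo5*, *Aox1* and *Aox3*, were followed over the day in mouse liver. The genes were chosen by their symbols, out of 20069 genes measured, with the rhythms of these same samples already known. What follows on their own levels and times of peak is therefore a description. The rhythm calls of these 6 genes, which include a permutation p over the same values, are given as labels by the study's limits and not as evidence of a rhythm. Tests are given for the difference between the series and for the 12 hr component, and for the other genes of the pathway, whose lists were written with results of these samples known too.

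Livers came from wild-type male C57BL/6 mice, adults of 3 to 6 months, that had lived in cycles of 12 hr of light and 12 hr of dark. Poly(A) RNA was sequenced every 4 hr, from ZT2 to ZT22, where ZT is the time in hr after lights on and lights go off at ZT12. Each time point had 2 samples, 1 from each of 2 independent series, which gives 12 samples in all. There was no treatment, mutant or control group, and the comparison is between times of day. Each liver gave 1 time point, and a difference between time points is a difference between animals.

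An FMO holds a flavin (FAD) and takes electrons from NADPH to put an oxygen on soft nitrogen or sulphur atoms of drugs and food compounds, and it sits in the membrane of the endoplasmic reticulum. FMO5 differs from the others in that it acts mainly on ketones, as a Baeyer-Villiger monooxygenase. An AOX is a soluble enzyme of the cytosol that carries a molybdenum cofactor, iron-sulphur clusters and FAD, takes its oxygen from water and needs no NADPH. It oxidises aldehydes and ring nitrogen compounds. In the mouse, AOX3 is known as the main aldehyde oxidase of the liver, and FMO1 and FMO5 as its main flavin monooxygenases.

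The genes lie in 3 places of the mm9 genome. *Fmo4* (chr1:164724014-164744103), *Fmo1* (chr1:164759692-164796679) and *Fmo2* (chr1:164804448-164828857) follow each other on the minus strand, with 15588 bp between the first pair and 7768 bp between the second. *Fmo5* stands alone on chr3:97432727-97459205, on the plus strand. *Aox1* (chr1:58086775-58163257) and *Aox3* (chr1:58169974-58257542) are neighbours on the plus strand, 6716 bp apart. No exon of the 6 genes overlapped an exon of another annotated gene on either strand. The coding sequences of *Aox1* and *Aox3* were identical at 69.7% of their aligned bases, and those of the FMO genes at 62.8% to 67.3%. The longest exact run shared by transcripts of any of these pairs was 24 bases, far shorter than a read, so that a read without errors could not fit the annotated transcripts of 2 of the genes.

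Promoters of 5 of the 6 genes were at hand, as RefSeq windows of the GRCm38.p6 build that hold 250 bases before the start of the transcript and 50 bases from its first base on. They were searched on both strands for 4 short motifs that are tied to the daily clock in the literature. These were the E-box CACGTG, the related CACGTT, the D-box TTANGTAA and the nuclear receptor half-site AGGTCA. Over all 32851 windows of this table, 7.15% held CACGTG, 4.68% held CACGTT, 2.32% held TTANGTAA and 16.3% held AGGTCA. The windows of *Fmo5*, *Fmo2* and *Aox3* are shown because these 3 genes had the clearest daily course, *Fmo5* and *Fmo2* high around lights off and *Aox3* high around lights on. Motif matches are in capitals, and each window reads along the strand of the gene.
Fmo5 (chr3:97628769-97629068, plus strand): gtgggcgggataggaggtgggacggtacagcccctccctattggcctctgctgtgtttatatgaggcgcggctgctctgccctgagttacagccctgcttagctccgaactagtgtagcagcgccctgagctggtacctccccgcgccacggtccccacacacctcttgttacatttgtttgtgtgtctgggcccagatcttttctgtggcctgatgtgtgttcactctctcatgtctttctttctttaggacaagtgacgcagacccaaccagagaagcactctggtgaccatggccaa
Fmo2, downstream start (chr1:162898444-162898743, minus strand): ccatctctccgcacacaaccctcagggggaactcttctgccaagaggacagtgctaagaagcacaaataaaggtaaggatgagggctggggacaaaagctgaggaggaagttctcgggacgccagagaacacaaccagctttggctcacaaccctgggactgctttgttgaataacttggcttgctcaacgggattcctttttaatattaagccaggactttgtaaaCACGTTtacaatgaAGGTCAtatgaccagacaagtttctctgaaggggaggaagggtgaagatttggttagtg
Aox3 (chr1:58112886-58113185, plus strand): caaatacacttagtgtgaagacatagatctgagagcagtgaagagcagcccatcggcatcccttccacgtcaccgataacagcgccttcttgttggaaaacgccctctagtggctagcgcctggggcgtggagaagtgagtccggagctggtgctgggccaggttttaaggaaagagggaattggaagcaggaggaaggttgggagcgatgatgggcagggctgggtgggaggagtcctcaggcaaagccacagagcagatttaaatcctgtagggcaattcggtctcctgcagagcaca

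The window of the downstream *Fmo2* start held CACGTT, beginning 23 bases before the start, and AGGTCA, beginning 9 bases before it. Neither the *Fmo5* nor the *Aox3* window held any of the 4 motifs, nor did the window of the other *Fmo2* start or that of *Aox1*. The window of *Fmo4* held AGGTCA on the opposite strand, 75 bases before the start. A match describes these letters only and does not show that a factor binds there.

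Expression was measured as reads per base pair (rpbp), the mean coverage of the exons of a gene, on a scale of 40000000 uniquely mapped sequences per sample. Since the coverage is divided by exon length, levels of different genes can be compared. All 6 genes passed the expression minimum of 8 rpbp in at least 1 sample, as did 10198 of the 20069 genes. *Fmo5* had the highest mean level, 1025 ± 284 rpbp (SD over 12 samples that span the day), and 98.5% of the expressed genes were lower. It was followed by *Aox3* at 408 ± 109.7 rpbp, *Fmo1* at 301 ± 104 rpbp and *Aox1* at 64.0 ± 14.2 rpbp. *Fmo2* (13.3 ± 8.16 rpbp) and *Fmo4* (6.41 ± 2.86 rpbp) were the lowest, and *Fmo4* was above the minimum in only 3 of the 12 samples. *Fmo5* was above *Aox3*, *Fmo1* above *Aox1*, and *Aox1* above *Fmo2* in 12 of 12 samples, with ranges that did not overlap. The other neighbours in this order were not apart, since *Aox3* was above *Fmo1*, and *Fmo2* above *Fmo4*, in only 8 of 12 samples each.

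To describe the daily course, the share of the variance of the 12 values that lies in a 24 hr wave (F24, from 0 to 1), the peak time of that wave (phase) and the amplitude (highest over lowest value) were used. The study's limits for calling a gene rhythmic were kept, that is, a permutation p under 0.05 together with more than 0.45 for F24 and more than 1.5 for the amplitude. Strong rhythms had to pass higher limits, 0.6 for F24 and a higher amplitude too. *Fmo5*, *Fmo2*, *Fmo1* and *Aox3* were called, 4 of the 6 genes, and all of them met the limits for strong rhythms. *Fmo1* lost its call with the adjusted permutation p, without the ZT2 samples and in either series alone. Over all expressed genes, 1948 (19.1%) were called and 805 (7.89%) were strong. The median F24 of the 6 genes was 0.710 (all expressed genes, 0.310), and their median amplitude was 3.02 (all expressed genes, 1.64). Since the genes were chosen with these rhythms known, the counts describe the choice. *Fmo1* (F24 0.634) lay nearest to the F24 limit among the genes called, and *Fmo4* (F24 0.360) nearest to it among the others.

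**Figure D1:**
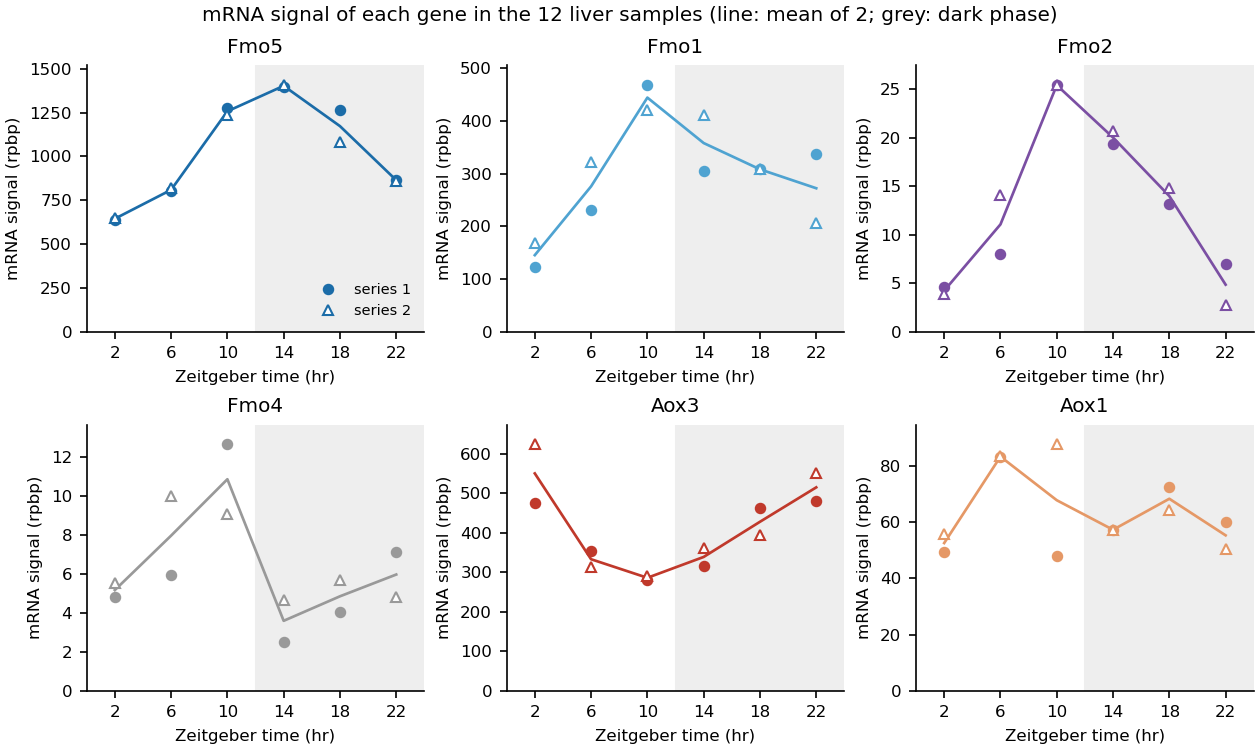
mRNA signal (rpbp, vertical axis from 0) against Zeitgeber time (hr) for each of the 6 genes, with filled circles for series 1, open triangles for series 2, a line through the mean of the 2 samples and grey for the dark phase. Mean *Fmo5* signal is 644 rpbp at ZT2 and 1402 rpbp at ZT14, with both series close together, and mean *Aox3* signal is lowest at ZT10 (286 rpbp).

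Among the monooxygenases, *Fmo5* followed the most regular course. In the first series its level was 639.6 rpbp at ZT2, 799.8 at ZT6, 1278 at ZT10, 1397 at ZT14, 1264 at ZT18 and 866 at ZT22. In the second series it was 648, 818, 1236, 1407, 1081 and 862 rpbp at the same times. Both series were lowest at ZT2 and highest at ZT14, and no sample of ZT10, ZT14 or ZT18 was as low as any sample of ZT2, ZT6 or ZT22. The mean lay between 644 ± 6.19 rpbp (SD, n = 2) in the ZT2 samples and 1402 ± 7.01 rpbp in those of ZT14, a 2.18-fold range. Pooled over the 6 time points, the SD between the 2 samples was 5.33% of the mean level (median of expressed genes, 10.8%). Its F24 was 0.969, with a phase of 13.9 hr, shortly after lights off, and an amplitude of 2.20. The phase was 14.1 hr in the first series alone and 13.7 hr in the second.

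*Fmo2*, which is best known as the monooxygenase of the lung, had the widest swing of the 6 genes at a low level. In the first series it was at 4.56 rpbp at ZT2, 8.04 at ZT6, 25.4 at ZT10, 19.3 at ZT14, 13.1 at ZT18 and 6.96 at ZT22. The second series gave 3.88, 14.1, 25.4, 20.7, 14.8 and 2.72 rpbp. Both samples of ZT10 were higher than all others, and the samples of ZT2 and ZT22 were the lowest 4 of the 12. The mean was 25.4 ± 0.0283 rpbp at ZT10 and 4.22 ± 0.481 rpbp at ZT2, 6.02-fold apart. At ZT6 and ZT22 the 2 samples were far apart, with SDs of 38.6% and 61.9% of the mean. The F24 was 0.903, the phase 12.1 hr and the amplitude 9.35, which rests on the sample of 2.72 rpbp, below the minimum of 8 rpbp. The phases of the series taken alone were 12.4 and 11.8 hr.

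*Fmo1*, a broad-range monooxygenase, peaked at ZT10 with more spread between the series. Its level in the first series was 123 rpbp at ZT2, 230.2 at ZT6, 468 at ZT10, 305 at ZT14, 308 at ZT18 and 338 at ZT22. The second series had 168, 321, 420.4, 412, 308 and 207 rpbp. Both samples of ZT10 were above all others and both samples of ZT2 below all others, and between them the samples of ZT6, ZT14, ZT18 and ZT22 overlapped. The mean lay between 145 ± 32.0 rpbp in the ZT2 samples and 444 ± 33.9 rpbp in those of ZT10, 3.06-fold. F24 was 0.634 in the 12 samples, 0.423 in the first series and 0.979 in the second, and the phases were 12.6, 13.4 and 12.0 hr. The daily wave was thus far less clear in the first series, whose ZT14 sample lay below its ZT22 sample.

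*Fmo4*, the fourth monooxygenase measured, was close to the expression minimum. It had 4.80 rpbp at ZT2, 5.96 at ZT6, 12.7 at ZT10, 2.52 at ZT14, 4.04 at ZT18 and 7.12 at ZT22 in the first series, and 5.56, 10, 9.08, 4.68, 5.68 and 4.84 rpbp in the second. The only samples above 8 rpbp were both of ZT10 and 1 of ZT6. Its SD between samples of a time point was 29.3% of the mean level, the largest of the 6 genes. F24 was 0.360 and the phase 7.62 hr, and the gene was not called. Like its neighbours *Fmo1* and *Fmo2* in the same cluster, it had its highest mean at ZT10, 10.9 ± 2.55 rpbp (SD, n = 2).

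Around lights on, the oxidase *Aox3* was high while *Fmo5*, *Fmo2* and *Fmo1* were low. The first series had 476 rpbp at ZT2, 353 at ZT6, 280.4 at ZT10, 316 at ZT14, 462 at ZT18 and 479.5 at ZT22. In the second series the values were 624, 313, 292, 361, 393 and 550.3 rpbp. The lowest sample of each series was at ZT10, and all samples of ZT2, ZT18 and ZT22 were above all samples of ZT6, ZT10 and ZT14. The mean was 550.2 ± 104 rpbp at ZT2 and 286 ± 7.92 rpbp at ZT10, 1.92-fold apart. F24 was 0.787, the amplitude 2.23 and the phase 23.0 hr, shortly before lights on, with 22.5 and 23.3 hr in the series taken alone. This phase was 9.07 hr from that of *Fmo5*, 10.9 hr from that of *Fmo2* and 10.4 hr from that of *Fmo1*. The courses were not mirror images. At ZT18 the mean of *Aox3* (428 rpbp) was above its 12-sample mean, and so were those of *Fmo5* (1173 rpbp), *Fmo2* and *Fmo1*.

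*Aox1*, the other aldehyde oxidase, was high at ZT6 in both series and parted between them at ZT10. The first series gave 49.3 rpbp at ZT2, 83.1 at ZT6, 47.8 at ZT10, 57.2 at ZT14, 72.4 at ZT18 and 60.0 at ZT22. The second gave 55.8, 83.4, 87.6, 57.3, 64.1 and 50.5 rpbp. At ZT10 the series held the lowest and the highest of all 12 values, with an SD of 41.5% of the mean, while at ZT6 and ZT14 they differed by less than 1 rpbp. F24 was 0.175, and it was 0.00510 in the first series and 0.698 in the second. *Aox1* was not called, although its amplitude of 1.83 was above the limit.

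**Figure D2:**
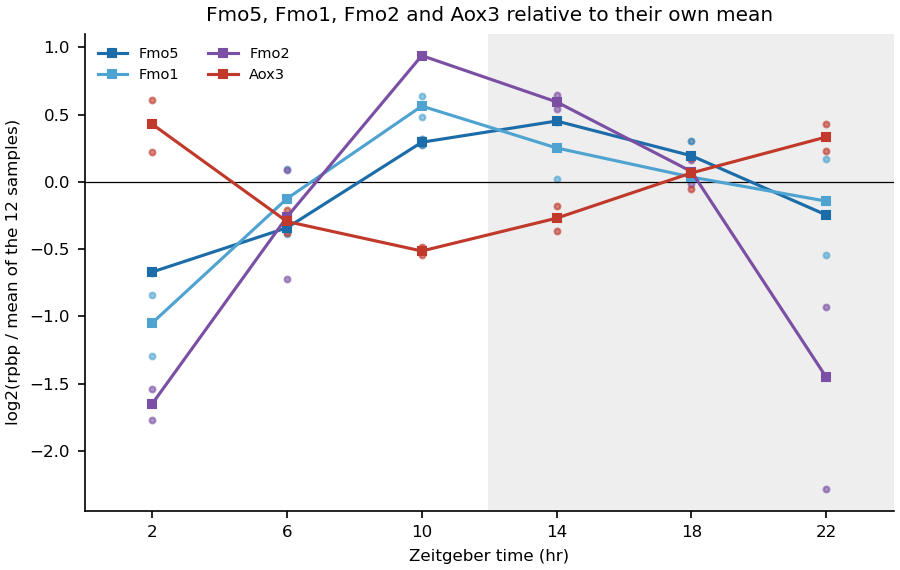
Level of the 4 genes called rhythmic, as log2 of rpbp over the mean of the 12 samples of that gene, against Zeitgeber time (hr), with squares and lines for the mean of the 2 samples, small points for the samples and grey for the dark phase. *Aox3* is at its lowest at ZT10, where *Fmo1* and *Fmo2* are at their highest, and at its highest at ZT2, where the other 3 genes are at their lowest.

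The ratio of *Fmo5* to *Aox3* mRNA was 1.34 and 1.04 in the 2 samples of ZT2, 2.27 and 2.61 at ZT6, 4.56 and 4.24 at ZT10, and 4.42 and 3.90 at ZT14. At ZT18 it was 2.73 and 2.75, and at ZT22 it was 1.81 and 1.57. Apart from ZT10 and ZT14, whose ratios overlapped, the ratios of no time point lay among those of another. The gaps between ZT2 and ZT22 and between ZT6 and ZT18 were smaller than the distance between the 2 samples of ZT2 and of ZT6.

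The summed signal of the 4 FMO genes was 799 ± 38.3 rpbp at ZT2 (SD, n = 2) and 1784 ± 85.2 rpbp at ZT14. That of *Aox1* and *Aox3* was 603 ± 109 rpbp at ZT2 and 354 ± 36.1 rpbp at ZT10. *Fmo5* made up most of the FMO signal in every sample, between 70.3% and 82.9%, and *Fmo1* made up 15.9% to 27.7%. *Fmo2* held 0.253% to 1.502% and *Fmo4* 0.146% to 0.859%. *Aox3* made up 76.9% to 91.8% of the AOX signal. Its mean share was 91.2% ± 0.830 at ZT2, 79.96% ± 1.39 at ZT6 and 81.2% ± 6.03 at ZT10, where ZT6 and ZT10 overlapped and the lowest single share was that of the second series at ZT10. The rest, 8.79% ± 0.830 at ZT2 and 20.04% ± 1.39 at ZT6, was *Aox1*.

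**Figure D3:**
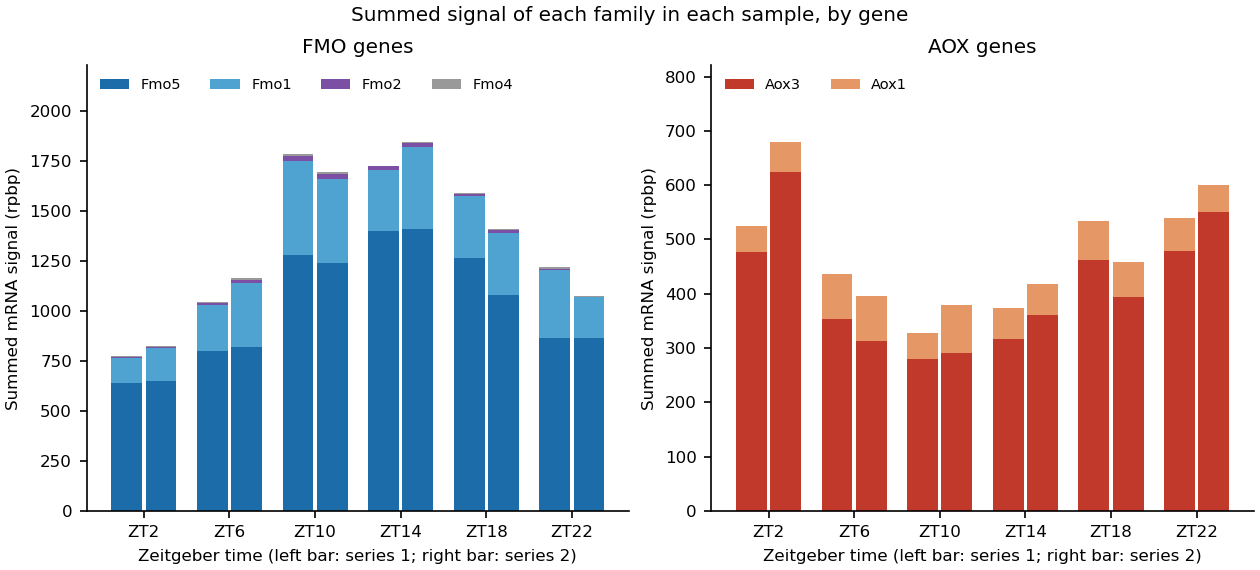
Summed mRNA signal (rpbp, from 0) of the FMO genes (left) and of the AOX genes (right) in each sample, with the left bar of each time point for series 1, the right bar for series 2 and colours for the genes. The FMO sum is highest at ZT14, with a mean of 1784 rpbp, and the AOX sum is lowest at ZT10, with a mean of 354 rpbp.

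The 2 samples of ZT2 stood apart from the others in ways that reach beyond these genes. The summed signal of 6 hepatocyte markers, all of them expressed, was 84108 and 87153 rpbp there and between 124406 and 158186 rpbp in the 10 other samples. Albumin (*Alb*) made up most of this, with 50445 and 53126 rpbp at ZT2. *Alb*, *Ttr*, *Cps1* and *Tdo2* had their lowest mean at ZT2, but *Apoa1* (17593 ± 240.1 rpbp, SD, n = 2) and *Serpina1a* (3880.1 ± 3.82 rpbp) had their highest mean there, so that the markers did not move as a set. The 4 Kupffer cell markers, also all expressed, summed to 536 and 530.2 rpbp at ZT2 and to 258 to 427 rpbp elsewhere. The 4 endothelial markers summed to 156 to 196 rpbp, 3 stellate cell markers to 20.7 to 46.0 rpbp and 2 bile duct markers to 0.8 to 4.36 rpbp, and 3 blood markers varied between 66.7 and 601 rpbp. In whole liver, fewer cells of a type and less RNA per cell cannot be told apart. By the paper's own counts, both ZT2 samples also had the lowest share of uniquely mapped sequences among these RNA-Seq samples. Whether this bears on the levels at ZT2 was not tested. As a check of the time labels, the clock genes *Nr1d1*, *Dbp*, *Per2* and *Arntl* had phases of 5.33, 7.36, 12.2 and 21.1 hr. *Fmo5*, *Fmo1*, *Fmo2* and *Aox1* had their lowest mean at ZT2, as did 21.9% of the expressed genes, and *Aox3* had its highest there, as did 29.2%.

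Without both samples of ZT2, a run added after the data had been seen, *Fmo5* kept an F24 of 0.949 and a phase of 13.9 hr, and *Fmo2* an F24 of 0.868 and a phase of 12.1 hr. *Aox3* had an F24 of 0.894 and a phase of 22.2 hr, and all 3 stayed called. *Fmo1* was no longer called in these 10 samples. Its F24 of 0.463 and amplitude of 2.27 were still above their limits, and it was the permutation p that missed.

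Whether the series differed was tested with limma on log2(rpbp + 1), with the time point as a block. The difference, series 2 minus series 1 on that scale, was 0.08 ± 0.16 (SE) for *Fmo1*, −0.05 ± 0.20 for *Fmo2*, 0.17 ± 0.18 for *Fmo4*, −0.04 ± 0.06 for *Fmo5*, 0.10 ± 0.14 for *Aox1* and 0.07 ± 0.09 for *Aox3*. None of the 6 had an adjusted p below 0.05, and their limma adjusted p lay between 0.993 and 0.997. Over all 10198 genes, 0 (0%) had an adjusted p below 0.05 and 426 an unadjusted p below 0.05. The 24 hr wave was compared between the series by the interaction of its cosine and sine with the series. The unadjusted p of the limma F-test was lowest for *Fmo2* (0.223) and highest for *Fmo4* (0.926), and all 6 had an adjusted p of 0.9999. Again 0 of the genes (0%) had an adjusted p below 0.05, and 201 had an unadjusted one below 0.05. A p above the limit does not show that the series were alike, and with 2 samples per time point these tests leave room for differences of the size of their errors.

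A 12 hr component, with 2 peaks a day, was tested in the same way as F24. The share of variance in it (F12) is a share of the same variance as F24, so a gene with a high F24 can only have a low F12. F12 was highest for *Aox1* at 0.413 (permutation p = 0.0944, adjusted p = 0.498 over all expressed genes) and next for *Fmo4* at 0.362 (permutation p = 0.119, adjusted p = 0.534). It was 0.194 for *Fmo1*, 0.0650 for *Aox3*, 0.0292 for *Fmo2* and 0.0110 for *Fmo5*, against a median of 0.202 over all expressed genes. None of the 6 genes passed the adjusted limit. By permutation, 0 of the 10198 genes (0%) had an adjusted p below 0.05 and 1171 an unadjusted p below 0.05, and by limma 8 had an adjusted p below 0.05.

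The enzymes need partners, and 57 genes of their pathways were listed, of which 52 had a row and 48 were expressed. Of these 48, 14 (29.2%) were called rhythmic, against 19.1% of all expressed genes. Their phases lay between 0 and 12 hr in 9 and between 12 and 24 hr in 5, and the shares of all expressed genes called in these parts of the day were 10.9% and 8.20%. A permutation p below 0.05 after adjustment over all expressed genes was reached by 8 of the 48, 6 of them among the 14 called, and by 573 (5.62%) of all expressed genes, 491 of them called. The lists were also written with results of these samples known. *Fmo6*, *Fmo9*, *Aox4*, *Mocs3* and *Me1* were not analysed here, and *Aox3l1* was below the minimum.

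AOX enzymes share their molybdenum cofactor with few others, and 8 genes of molybdenum enzymes and of cofactor synthesis were expressed. Of these, 2 (25%) were called, against 19.1% of all expressed genes. The 2 called were *Mocos*, whose product puts the sulphur on the cofactor that AOX and xanthine dehydrogenase need, and *Xdh*, xanthine dehydrogenase itself. *Mocos* lay between 47.6 ± 4.07 rpbp in the ZT10 samples and 79.0 ± 0.453 rpbp (SD, n = 2) in those of ZT2, with an F24 of 0.854 (permutation test, adjusted p = 0.0269) and a phase of 0.331 hr, 1.34 hr after that of *Aox3*. *Xdh* lay between 62.7 ± 2.12 rpbp in the ZT2 samples and 93.4 ± 7.47 rpbp in those of ZT10, with an F24 of 0.903 (permutation test, adjusted p = 0.0194) and a phase of 10.4 hr. Its amplitude was 1.61, and 1.49 when taken from the time-point means, which is under the limit and ends the call. *Mosc2*, another molybdenum enzyme gene, had an F24 of 0.852 but an amplitude of 1.44, under the limit. The genes of the early steps, *Mocs1*, *Mocs2* and *Gphn*, and *Suox* and *Mosc1* were not called.

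For the cofactor FAD, 3 genes of riboflavin uptake and FAD synthesis were expressed (*Gpr172b*, *Rfk* and *Flad1*) and none was called, with F24 values of 0.0270, 0.264 and 0.0856. Of the genes that supply NADPH, which FMO enzymes consume, 6 were expressed and none was called. Their highest F24 was 0.479, that of *Aldh1l1*, with an amplitude of 1.45. Some of these genes were at high levels, with a mean of 855 rpbp for *Aldh1l1* and 678 rpbp for *Idh1*. Of all expressed genes 19.1% were called, and with so few FAD and NADPH genes the absence of calls says little.

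Of the 3 electron donors of the same membrane, *Por* and *Cyb5* were called (all expressed genes, 19.1%). *Por*, the reductase that feeds the P450 enzymes, lay between 105 ± 1.41 rpbp in the ZT2 samples and 479 ± 63.2 rpbp in those of ZT10, with an F24 of 0.927 (permutation test, adjusted p = 0.0146) and a phase of 11.3 hr. *Cyb5*, cytochrome b5, lay between 2360 ± 114 rpbp in the ZT2 samples and 4223 ± 154 rpbp in those of ZT10, with an F24 of 0.834 (permutation test, adjusted p = 0.0362) and a phase of 11.8 hr. *Cyb5r3* was not called, with an F24 of 0.256. *Por* and *Cyb5* were thus high at the times when *Fmo2* and *Fmo1* were high.

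Of 21 other oxidoreductases and hydrolases that act on drugs and aldehydes, 7 (33.3%) were called, against 19.1% of all expressed genes. Their phase was before 12 hr in 4 and after it in 3. *Cbr1*, a carbonyl reductase, had an F24 of 0.819 (permutation test, adjusted p = 0.0211) and a phase of 13.6 hr, and lay between 81.3 ± 0.651 rpbp in the ZT2 samples and 175 ± 2.26 rpbp in those of ZT14. *Adh1*, the main alcohol dehydrogenase, had an F24 of 0.698 and a phase of 11.0 hr, but an adjusted permutation p of 0.0747. *Aldh1a1*, an aldehyde dehydrogenase that shares substrates with AOX, had an F24 of 0.676 and a phase of 12.8 hr (permutation test, adjusted p = 0.0620). *Pon1* had an F24 of 0.639 and a phase of 11.8 hr (permutation test, adjusted p = 0.0995), and was not called by the limma F-test. Only *Cbr1* of the 7 passed the adjusted limit.

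Of 7 xenobiotic receptors and hepatocyte factors, 3 (42.9%) were called, against 19.1% of all expressed genes. *Nr1i3* (CAR) lay between 54.9 ± 0.0849 rpbp in the ZT2 samples and 246 ± 8.51 rpbp in those of ZT10, with an F24 of 0.719 (permutation test, adjusted p = 0.0473) and a phase of 12.0 hr. *Nr1i2* (PXR) had an F24 of 0.698 and a phase of 13.1 hr (permutation test, adjusted p = 0.0636). *Ahr* had an F24 of 0.536 and a phase of 12.2 hr (permutation test, adjusted p = 0.165), and its call was lost with the replicate block, with the limma F-test and in either series alone. *Hnf4a*, *Arnt* and *Nfe2l2* were among those not called.

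The samples of ZT2 weigh on these lists. Of the 48 expressed list genes, 37 (77.1%) had their lowest mean at ZT2, against 21.9% of all expressed genes. So did 13 of the 14 called, all but *Mocos*, against 27.3% of all called genes. Without the ZT2 samples, 11 list genes were called, 9 of them among the 14. Calls over all expressed genes went from 1948 to 1540, so a fall in calls was not particular to these lists. *Adh7*, *Ahr*, *Aldh1a1*, *Nqo1* and *Nr1i2* lost the call, and *Adh4* and *Cyb5r3* gained it. *Mocos*, *Xdh*, *Por* and *Cyb5* kept it.

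**Figure D4:**
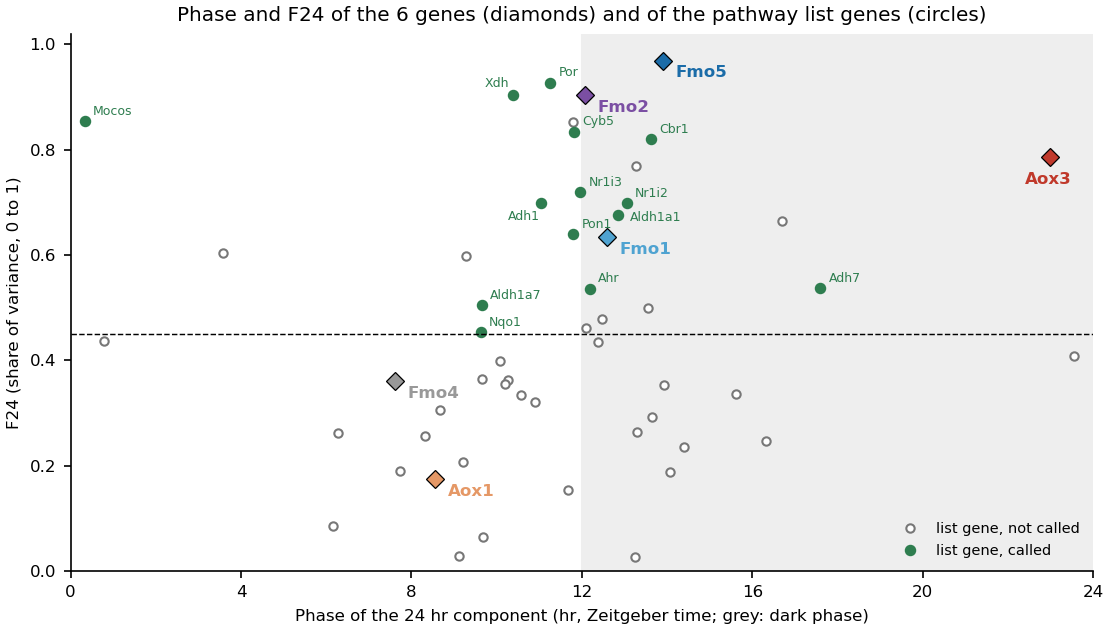
F24 (vertical axis, 0 to 1) against the phase of the 24 hr component (hr) for the 6 genes (diamonds) and the 48 expressed pathway genes (circles, filled where called), with a dashed line at the F24 limit of 0.45 and grey for the dark phase. Most called genes lie between 9 and 14 hr, as do *Fmo1*, *Fmo2* and *Fmo5*, while *Aox3* at 23.0 hr, *Mocos* at 0.331 hr and *Adh7* at 17.6 hr lie apart from them.

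Finally, each of the 6 genes was set against all other genes with a mean of at least 8 rpbp (8953 genes in all), and the 3 genes with the most similar course were taken, by Pearson's r of log2(rpbp + 1) over the 12 samples. These values describe the same 12 samples, which share their library and time of day, and carry no test. *Fmo5* was most like *Homer2* (r = 0.964) and *Marveld1* (r = 0.962), and the next row, *vesl-2* (r = 0.961), is an older name of *Homer2* and shares its reads. *Fmo2* was most like *Coq6* (r = 0.965), *Slc43a3* (r = 0.954) and *Gpt1* (r = 0.943). *Fmo1* was most like *Rbm25* (r = 0.939), *Ugt2a3* (r = 0.933) and *Dap3* (r = 0.931). *Aox3* was most like *Abca2* (r = 0.930), *mKIAA1441*, listed in RefSeq under *Zfp687* (r = 0.917), and *Lasp1* (r = 0.914). For *Aox1* these were *Pcx* (r = 0.942), *Pex19* (r = 0.937) and *Pex5* (r = 0.918). The likeness was weakest for *Fmo4*, with *Gm114* (r = 0.843), *Spry4* (r = 0.830) and *Clip50*, an older name of *Clip1* (r = 0.819).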

How the data were processed

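Poly(A) RNA-Seq of 12 liver samples was used. The authors made TruSeq v2 libraries from 4 ug of total RNA, read them on a HiSeq2000 with CASAVA 1.8, and mapped them to mm9 with TopHat, keeping sequences with 1 place. The deposited signal is coverage that the authors summed over the flattened exons of each gene without regard to strand, divided by exon length and scaled to 10000000 uniquely mapped sequences. It was multiplied by 4, as in the study. It summed to between 371867 and 386529 rpbp per sample before that. Coverage is not a count, so no counting interval or count test is given. The deposited F24, phase and p-value columns hold the authors' own rhythm results and were not used. The column named ZT20 is ZT22 in the sample labels and was taken as such.

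F24 and phase came from a Fourier analysis of the 12 values, and p from 10000 random orders (seed 1), adjusted by Benjamini-Hochberg over 10198 genes. Gene-wide tests used limma 3.58.1 (R 4.3.3). Python 3.11.15, numpy 2.4.6, pandas 2.3.3, matplotlib 3.10.9 and Biopython 1.88 were used. All tests were tested on simulated data. Single series were tested over all 720 orders of 6 values, where the smallest p is 0.0167. Positions are those of GENCODE for mm9.

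The 6 genes, the pathway lists and the markers were chosen with earlier results of these data known. The named genes are the 6 members, up to 4 called genes per list with the highest F24, and the 3 most similar genes. Alternatives were F24 on log2(rpbp + 1) or log2(rpbp + 0.1), a minimum of 16 rpbp or no minimum, median-of-ratios scaling, calls by adjusted p or by limma, the amplitude of time-point means, hour 20 for the last time point, each series left out, the replicate block and, added later, leaving out ZT2. The labels call the samples replicates without saying how many animals each holds. Some results that were computed are not reported here.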

Additional observations from a re-analysis of the deposited data

How the results depend on the processing

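The number of expressed genes called rhythmic, 1948, was 491 with the adjusted permutation p, 828 with the limma F-test and 286 to 369 in single series, and it stayed within 1.5 times of 1948 in the other settings. Of the 6 genes, 4 were called in all settings that kept both series, except 3 with the adjusted p and 3 without the ZT2 samples, where *Fmo1* was lost, and 1 to 2 were called in single series, where a call needs a p from only 720 orders. *Fmo5* kept its call in 13 of 13 settings, with an F24 from 0.949 to 0.989 and a phase from 13.4 to 14.1 hr. *Aox3* kept it in 12 of 13 (F24 0.769 to 0.960) and was lost in the second series alone. *Fmo2* kept it in 11 of 13 (F24 0.855 to 0.969) and *Fmo1* in 9 of 13 (F24 0.423 to 0.979). *Fmo4* and *Aox1* were called in none. The phase of *Aox1* ran from 0.647 to 9.07 hr and has no fixed value. Of the pathway genes, 14 were called, but 6 with the adjusted p, 9 with limma and 1 to 3 in single series.

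With the replicate block, in which the mean of each series was removed, 1779 genes, 4 of the 6 members and 10 pathway genes were called. Deviations of the series correlated above 0.1 in 2 of 15 pairs of time points (median −0.03, highest 0.21). These correlations gave no clear sign that the replicate numbers pair the samples. They cannot exclude an effect shared within a series. For the 12 hr component the limma F-test gave 8 genes with an adjusted p below 0.05, none of them a member, against 0 in the other settings. The tests between the series gave 0 genes in every setting run. The family shares moved by less than their SD when a series was left out, for example 75.8% to 77.1% for *Fmo5* and 85.3% to 86.2% for *Aox3*. Coverage without counts gives no sampling error for low genes such as *Fmo4* and *Fmo2*.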
